A study of Mus musculus with 47 samples.

Results

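Wild-type embryonic liver at E18.5 was compared with wild-type lung and brain of the same stage, in 23 of the 47 libraries of a study of the histone chaperone Daxx. The libraries were taken by their genotype label. The authors had set aside an outlying lung of this genotype from the Y130A litters on its expression values, so that measured values had a part in which lungs are present. They were 8 livers, 7 lungs and 8 brains. All embryos were wild type for Daxx and of the strain labelled C57BL/6; the alleles were made in C57BL/6N zygotes and the founders were crossed back to C57BL/6J mice. They were littermates of mutants from heterozygous intercrosses, 4 libraries of each tissue from S226A litters and 4 from Y130A litters, with 3 lungs in the latter. The 9 embryos came from 8 litters, and 6 of them gave all 3 tissues. Liver was paired with brain in 8 embryos and with lung in 6, and the lung of the embryo that gave no other library informs no contrast in the fit that has the embryo as a block. The RNA was that of whole pieces of organ, so that fewer cells of a type and less RNA per cell cannot be told apart in any value below.

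Late in gestation the liver is an organ with more than one task. Hepatocytes already secrete albumin, apolipoproteins and clotting factors into the plasma and are building up the enzymes of the urea cycle, of gluconeogenesis and of bile acid synthesis, several of which reach adult levels only after birth. The same organ is the main site of definitive hematopoiesis in the fetus, where erythroblasts mature around macrophages and granulocytes, megakaryocytes and B cell precursors arise, before these lineages move to the bone marrow.

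The deposited values were counts per gene, and the libraries of the S226A litters held 15722147 to 24415963 counts and those of the Y130A litters 38069327 to 54885020, so that the litter sets cannot be told apart from depth. Levels are given as CPM (read counts scaled to a common library size after TMM scaling), and levels of single genes are set side by side per length, as TPM (counts divided by exon length and scaled to a common total). Of 20456 genes in the file, 16036 passed the filter on low counts and were tested. The tissue labels were checked against their defining markers. The list of lung epithelial genes took 1.08% to 1.76% of the counts of the lungs against at most 0.057% in any liver, and the list of neuronal genes took 0.864% to 0.967% of the counts of the brains against at most 0.00212% in any liver. A liver of the S226A litters, replicate 2, stood apart in the 10 genes of squamous epithelium, which took 0.0202% of its counts against 0.000131% to 0.000309% in the other livers. The lungs had 0.00354% to 0.0166%. None of the 7 squamous genes that could be tested was called. Without that library, 8 rather than 9 globins were higher than both tissues, and no other list changed its count of genes higher than both.

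The counts of liver were concentrated on fewer genes than those of lung and brain. Alb, the gene of serum albumin, alone took 9.04% to 9.91% of the counts of a liver, with a median of 9.44%. The 10 most abundant genes together took a median of 21.4% of the counts in liver, 5.28% in lung and 4.02% in brain. The number of genes at 1 CPM or more was nonetheless similar, with medians of 13132 in liver, 13789 in lung and 13736 in brain.

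With edgeR's quasi-likelihood test and embryo as a block, 3645 genes (22.7% of those tested) were higher in liver than the mean of lung and brain and 4211 (26.3%) were lower. A gene was called at an adjusted p below 0.01 (Benjamini-Hochberg), a log2 fold change beyond 1 and a standard error below 1. Against lung alone, 3109 genes (19.4%) were higher and 3823 (23.8%) lower, and against brain alone 4420 (27.6%) were higher and 4776 (29.8%) lower. Liver was higher than each of the other tissues in 2407 genes (15%) and lower than each in 2425 genes (15.1%). In 2226 of these 2407 genes the lowest liver lay above the highest lung and brain, and in 1938 of the 2425 the highest liver lay below all of them. A call against the mean did not always hold against each tissue. Of the 3645 genes higher than the mean, 2407 were called higher than each tissue, and 55 were lower than lung or lower than brain. Of the 4211 lower genes, 67 were higher than lung or higher than brain. The median log2 fold change over all genes tested was -0.10 after TMM scaling and -0.72 when library totals alone set the scale. By the latter, 29.3% of the genes called against the mean were higher in liver, compared with 46.4% after TMM scaling.

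**Figure D1:**
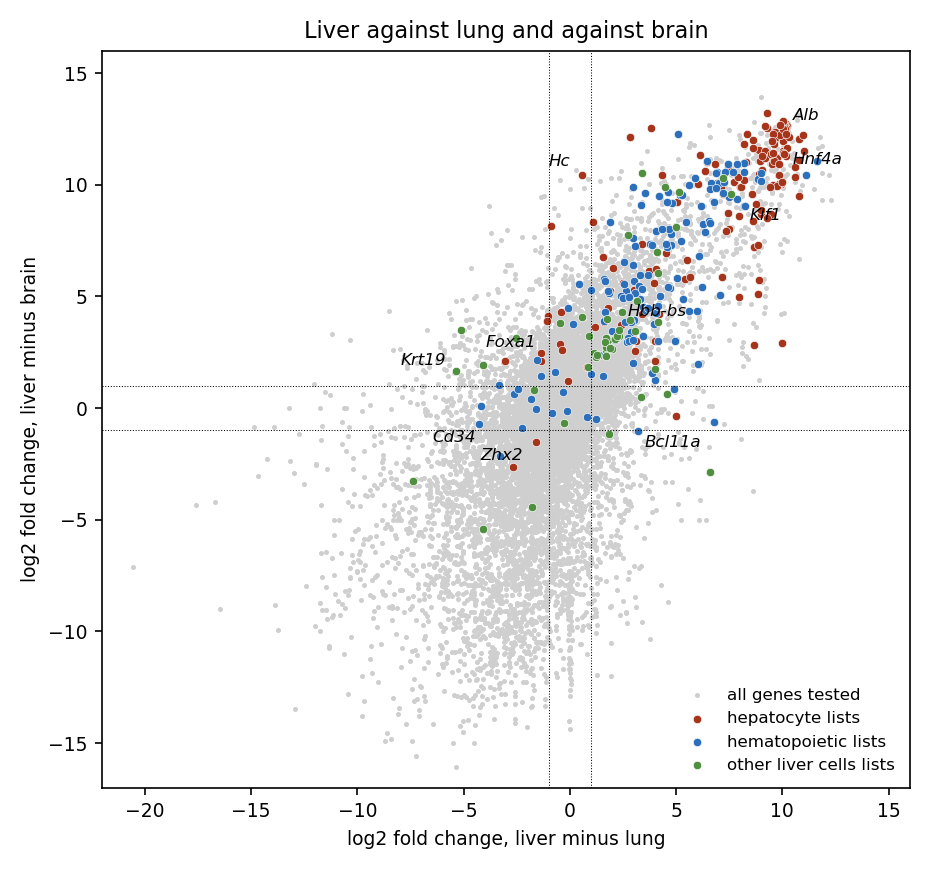
Log2 fold change of liver over lung (x axis) and of liver over brain (y axis) for the 16036 genes tested, with the members of hepatocyte, hematopoietic and other liver cell lists in colour and dotted lines at a log2 fold change of 1 and -1. Most list genes lie in the upper right, where liver was higher than both tissues, and Foxa1, Krt19, Cd34 and Zhx2 are among those that do not.

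The share of a list in the counts of a library grows with the length of its genes, so that shares are compared between tissues and not between lists. The 139 tested members of the 8 hepatocyte lists included 124 that were higher than lung and brain alike, and the lists together took 25.5% to 28.6% of liver counts (median 26.6%), against medians of 0.456% in lung and 0.186% in brain. The hematopoietic lists had 139 tested members too, of which 114 were higher in both comparisons. They took 3.43% to 4.61% of liver counts (median 3.89%), against medians of 0.837% in lung and 0.302% in brain. These counts stand beside 15% of all genes tested. Because the lists name genes known for these cells, their direction is a description of the organ and not independent evidence.

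**Figure D2:**
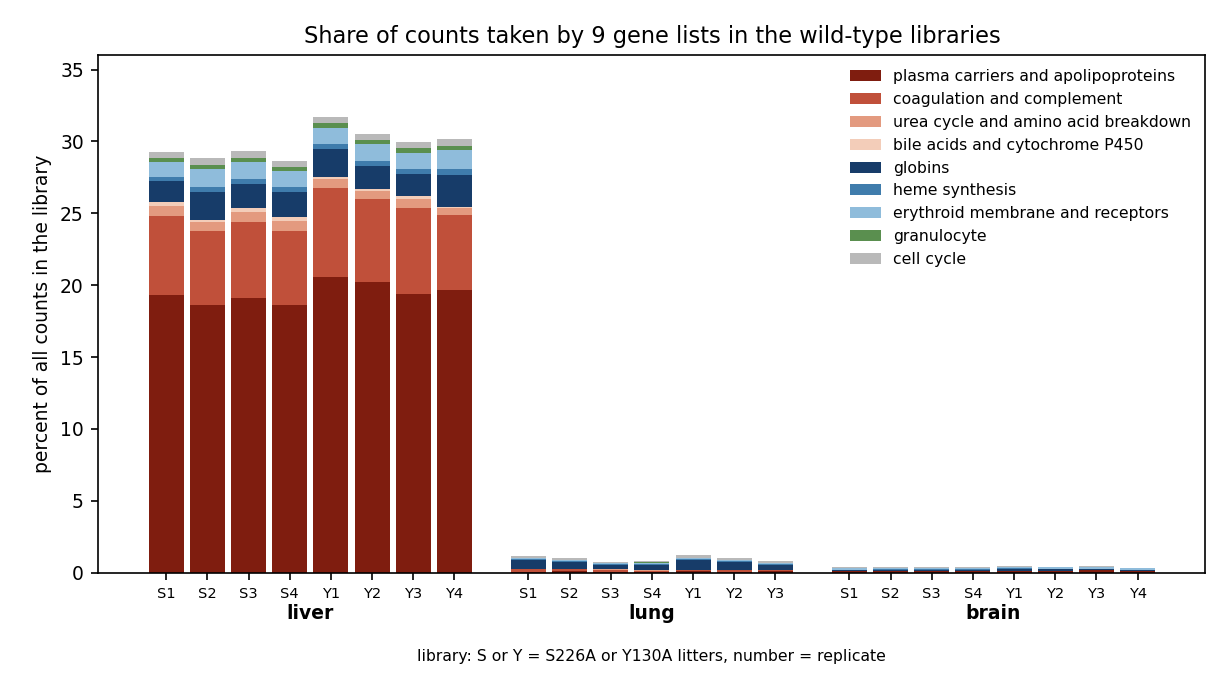
Percent of all counts in each of the 23 wild-type libraries that fell on 9 gene lists, stacked, by tissue, litter set and replicate. Plasma carriers and apolipoproteins took 18.6% to 20.6% of the counts of each liver, and all 9 lists together stayed far below that in every lung and brain.

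All 29 genes of the list of plasma carriers and apolipoproteins were higher in liver than in lung and in brain, and their median log2 fold change over the mean was 10.13, against -0.10 over all genes. With DESeq2, 22 of the 29 were called in both comparisons. The 15 transcripts with the highest level per length in liver were led by Alb at a median of 123559 TPM and included Ahsg (fetuin-A) at 33052 TPM, Afp (alpha-fetoprotein, the fetal homologue of albumin) at 26224 TPM and Apoa1 (the main protein of high-density lipoprotein) at 18842 TPM. Alb lay between 115576 and 143840 CPM in the 8 livers (median 123064), between 7.37 and 302 CPM in the lungs (median 96.7) and between 3.29 and 79.2 CPM in the brains (median 22.2). No lung or brain came near any liver, and the log2 fold change over the mean was 11.45 (SE 0.56, adjusted p = 2.31e-12). The lowest log2 fold change of the list was that of Apoe, a lipoprotein component that glial cells and macrophages also make, at 4.21 (SE 0.08). Apoe lay between 5038 and 8314 CPM in liver (median 6431), between 216 and 398 CPM in lung (median 346) and between 257 and 469 CPM in brain (median 330), so that the other tissues had it at similar levels. Ttr, the thyroid hormone carrier transthyretin, which the choroid plexus of the brain also secretes, had a log2 fold change of 10.01 over lung and of 2.93 over brain. It lay between 4211 and 5938 CPM in liver (median 4834), between 534 and 794 CPM in brain (median 587) and between 0.546 and 8.68 CPM in lung (median 4.67).

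Several of these genes are neighbours in the genome, and the members of each such cluster shared the direction. The albumin family lies within chr5:89417522-90553543 (GRCm38), with Gc (vitamin D binding protein), Alb, Afp and Afm (afamin), and all 4 were higher than lung and brain. They spanned a wide range of levels per length, from 123559 TPM for Alb to 26224 TPM for Afp, 4019 TPM for Gc and 124 TPM for Afm. Their log2 fold changes over the mean were closer together, at 11.45 for Alb, 11.42 for Afp (SE 0.53), 11.02 for Gc (SE 0.34) and 9.86 for Afm (SE 0.21). Their promoters are shown because the 4 genes are of common descent, differ in level and moved the same way. Each is the RefSeq window of 250 bases before to 50 bases after the start site (GRCm38.p6), at chr5:90460620-90460919, plus strand, for Alb, chr5:90490464-90490763, plus strand, for Afp, chr5:90518699-90518998, plus strand, for Afm and chr5:89457849-89458148, minus strand, for Gc.
Alb: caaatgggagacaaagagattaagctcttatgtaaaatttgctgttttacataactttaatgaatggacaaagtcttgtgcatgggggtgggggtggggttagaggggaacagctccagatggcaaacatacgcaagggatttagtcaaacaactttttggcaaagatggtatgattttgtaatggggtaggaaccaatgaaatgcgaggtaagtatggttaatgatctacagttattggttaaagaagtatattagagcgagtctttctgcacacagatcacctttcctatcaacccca
Afp: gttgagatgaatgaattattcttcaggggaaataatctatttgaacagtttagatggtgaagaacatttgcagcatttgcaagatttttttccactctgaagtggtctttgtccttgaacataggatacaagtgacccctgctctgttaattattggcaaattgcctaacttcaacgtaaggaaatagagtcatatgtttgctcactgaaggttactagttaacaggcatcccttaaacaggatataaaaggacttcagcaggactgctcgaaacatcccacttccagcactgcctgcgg
Afm: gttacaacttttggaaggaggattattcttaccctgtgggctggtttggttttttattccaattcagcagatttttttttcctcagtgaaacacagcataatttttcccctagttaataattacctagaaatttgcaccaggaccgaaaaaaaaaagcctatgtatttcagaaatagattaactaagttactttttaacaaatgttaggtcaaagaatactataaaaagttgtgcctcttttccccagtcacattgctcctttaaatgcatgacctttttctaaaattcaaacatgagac
Gc: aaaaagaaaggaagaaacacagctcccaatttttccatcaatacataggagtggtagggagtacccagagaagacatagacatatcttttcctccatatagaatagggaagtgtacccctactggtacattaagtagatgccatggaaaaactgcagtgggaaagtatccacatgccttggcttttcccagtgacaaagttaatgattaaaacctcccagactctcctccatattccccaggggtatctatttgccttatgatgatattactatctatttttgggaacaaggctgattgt
None of the 4 windows held the letters of the motifs searched on either strand, which were CAAAGTCCA for HNF4, TTGCGCAA for CEBP, AGATAA for GATA and CCACACCC for KLF. This says only that these letters are absent from the windows, which are printed without capitals. Of 136 promoters in the table that belong to hepatocyte list genes, the HNF4 letters were in 3 (2.21%), against 0.475% of all 32851 promoters and 1 of 44 (2.27%) for the lists of other tissues, and the CEBP letters were in none, against 0.183% of all. These shares are a description, and a match is not a binding site.

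Other clusters followed the same pattern. The 3 fibrinogen genes Fga, Fgb and Fgg at chr3:83007724-83049863 had log2 fold changes over the mean of 11.34 (SE 0.45), 11.37 (SE 0.48) and 11.30 (SE 0.46). All 7 serpins of the alpha-1 antitrypsin cluster at chr12:103614786-103958975 were higher in liver than in both tissues, though the near-identical copies Serpina1a to Serpina1e share reads and their separate levels are uncertain. Serpina1e was the most abundant of them per length at 9867 TPM. The 4 genes of the Apoa1 cluster on chromosome 9 and the 4 of the Apoe cluster on chromosome 7 were likewise all higher. Apoc2, the activator of lipoprotein lipase, lay between 2.24 and 7.57 CPM in liver (median 3.82) and had no read in any lung or brain, so that it was at least 312-fold higher than lung against a floor of 3 counts over the 7 lungs.

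Clotting and complement genes took 5.15% to 6.18% of liver counts (median 5.41%). Of 33 genes tested, 32 were higher than the mean of the other tissues and 30 higher than each. Fga, the most abundant of them per length at 12040 TPM, lay between 13809 and 21178 CPM in liver (median 15436), between 0.382 and 34.0 CPM in lung (median 12.4) and between 0.632 and 9.95 CPM in brain (median 2.93). F13b, a subunit of the factor that crosslinks fibrin, had the largest fold of the list, with 231 to 354 CPM in liver (median 293), at most 0.401 CPM in lung and at most 0.127 CPM in brain (log2 fold change 11.41, SE 0.22). All livers were far above all other libraries in both genes. The exceptions were shared with lung. Pros1, which encodes the anticoagulant protein S, had 45.1 to 61.5 CPM in liver (median 49.4) and 95.7 to 148 CPM in lung (median 131), without overlap, and was lower than lung (log2 fold change -1.36) and higher than brain (2.13). The complement genes C6 and Hc were higher than brain but were not called against lung. For Hc, which encodes complement C5, the livers (689 to 903 CPM, median 787) and the lungs (275 to 879 CPM, median 538) overlapped, while no brain exceeded 0.962 CPM.

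Transcription factors of the hepatocyte network differed in direction against lung. Of 21 tested, 18 were higher in liver than the mean, 16 were higher than both tissues and 1 was lower than both. Hnf4a, the central nuclear receptor of the network, lay between 405 and 543 CPM in liver (median 494), between 0.0546 and 0.657 CPM in lung (median 0.421) and at most 0.46 CPM in brain, with a log2 fold change of 10.92 (SE 0.24, adjusted p = 5.84e-17). Nr1i3 (the xenobiotic receptor CAR, 9.84), Nr1h4 (the bile acid receptor FXR, 9.09), Nr1i2 (the xenobiotic receptor PXR, 9.09), Creb3l3 (8.93) and Foxa3 (8.74) had log2 fold changes over the mean of similar size. Onecut1 (6.48), Ppara (5.75), Onecut2 (5.74), Cebpa (4.17), Nr5a2 (4.15), Hhex (3.57), Prox1 (3.06) and Rxra (2.72) were higher than both tissues by smaller factors. The 4 factors that were higher than brain but not higher than lung were Foxa2, Foxa1, Cebpb and Tbx3. Foxa2, a pioneer factor of endoderm, lay between 17.6 and 24.7 CPM in liver (median 22.4) and between 21.9 and 33.8 CPM in lung (median 29.1), with overlap, and was not called against lung (log2 fold change -0.40). Foxa1 (log2 fold change -1.38), Cebpb (-1.04) and Tbx3 (-3.07) were lower than in lung and higher than in brain. For Foxa1 the livers lay between 3.01 and 6.14 CPM (median 5.22) and the lungs between 9.37 and 26.5 CPM (median 13.4), without overlap. Zhx2, a repressor of Afp in the postnatal liver, was the only member lower than both tissues. It lay between 5.41 and 11.3 CPM in liver (median 9.68), between 20.4 and 29.8 CPM in lung (median 28.8) and between 21.6 and 27.6 CPM in brain (median 25.2), with a log2 fold change of -1.56 (SE 0.10). With library totals alone, 13 rather than 16 of the 21 were higher than both tissues.

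**Figure D3:**
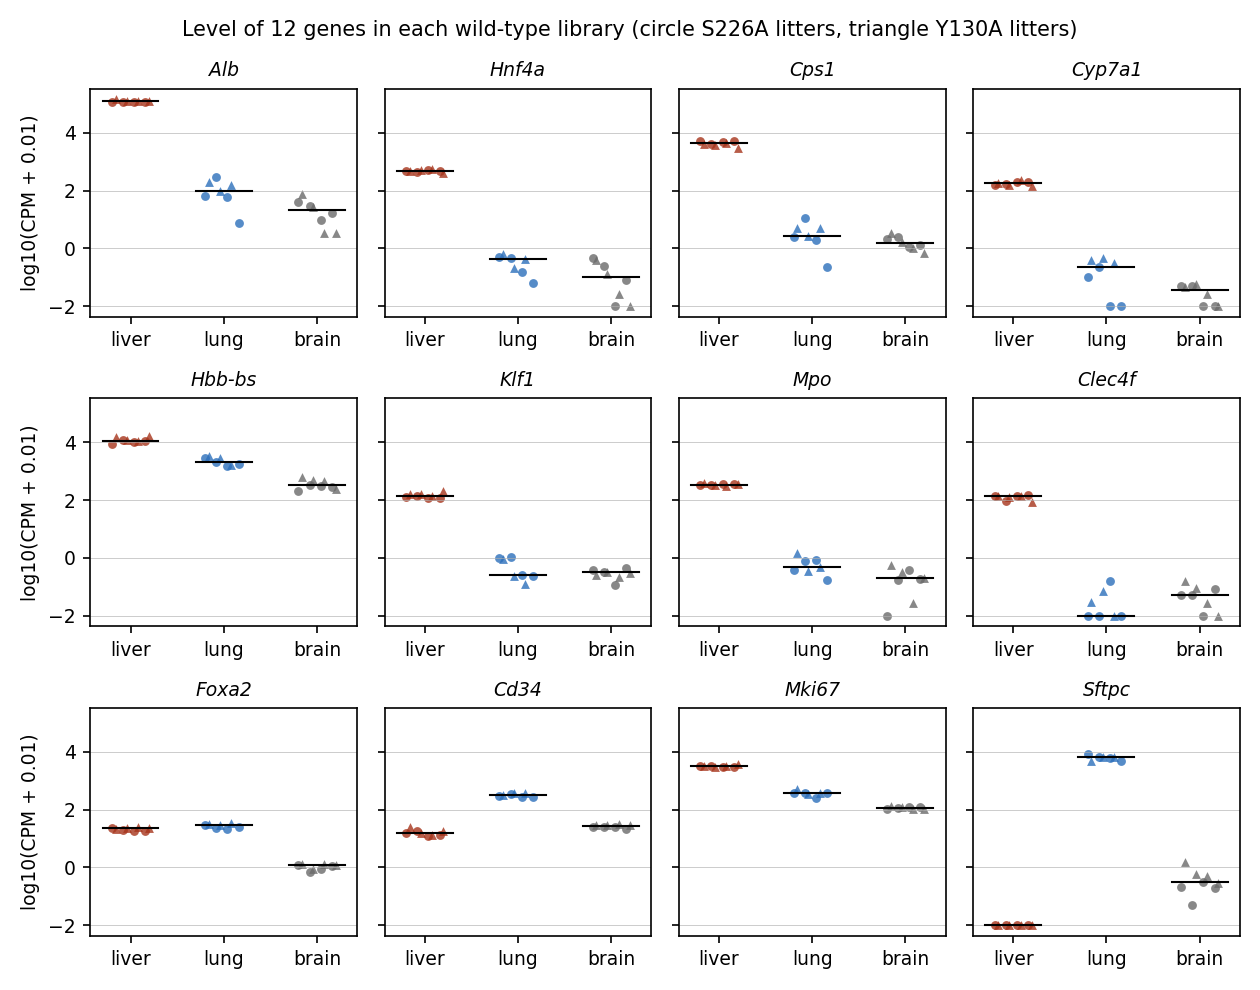
Level of 12 genes, chosen after their values were seen to show each kind of pattern, in every wild-type library on a log10 scale after adding 0.01 CPM, with the median of each tissue as a bar. Alb, Hnf4a, Cps1, Cyp7a1, Klf1, Mpo and Clec4f separate liver from both tissues by orders of magnitude, Hbb-bs and Mki67 by less, Foxa2 separates only brain, and Cd34 and Sftpc are highest in lung.

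Metabolic enzymes that are known to rise around birth were already far above the other tissues. In the list of the urea cycle and amino acid breakdown, 16 of 17 genes were higher than lung and brain. Cps1, which makes carbamoyl phosphate as the entry step of the urea cycle, lay between 2983 and 5403 CPM in liver (median 4335), between 0.219 and 11.6 CPM in lung (median 2.62) and between 0.693 and 3.31 CPM in brain (median 1.49). The largest log2 fold change of the list was that of Otc, the next enzyme of the cycle, at 10.95 (SE 0.30). The exception was Tdo2, the tryptophan dioxygenase of adult liver. It lay between 0.364 and 2.57 CPM in liver (median 1.45) and between 1.42 and 3.64 CPM in lung (median 2.00), with overlap, and was called only against brain. All 11 genes of glucose and glycogen metabolism were higher than in both tissues. G6pc, which releases free glucose, had the largest fold, with 25.2 to 152 CPM in liver (median 125), at most 0.25 CPM in lung and at most 0.0349 CPM in brain.

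Bile acid and cytochrome P450 genes took a small part of the counts, 0.111% to 0.28% (median 0.196%), but all 13 that could be tested were higher in liver than in both tissues, with a median log2 fold change of 10.74. Cyp3a16, a fetal and neonatal enzyme of drug and steroid oxidation, was the most abundant of them per length at 338 TPM. Its near-identical relatives may share its reads. Cyp8b1, which sets the proportion of cholic acid in bile, had the largest fold, with 56.7 to 130 CPM in liver (median 103), at most 0.0848 CPM in lung and at most 0.0837 CPM in brain (log2 fold change 11.62, SE 0.23, adjusted p = 1.37e-17). The lowest was Cyp27a1, a mitochondrial sterol hydroxylase that many tissues have, at 5.15 (SE 0.13). Cyp1a2 and Cyp2c29, P450 enzymes of the adult liver, did not pass the filter, with at most 24 and 6 reads in any liver. The promoter of Cyp8b1 (chr9:121916256-121916555, minus strand, GRCm38.p6) is shown because it was 1 of 3 promoters of hepatocyte list genes that held the HNF4 letters, all of them in this list; they are in capitals and began 67 bases before the start site.
Cyp8b1: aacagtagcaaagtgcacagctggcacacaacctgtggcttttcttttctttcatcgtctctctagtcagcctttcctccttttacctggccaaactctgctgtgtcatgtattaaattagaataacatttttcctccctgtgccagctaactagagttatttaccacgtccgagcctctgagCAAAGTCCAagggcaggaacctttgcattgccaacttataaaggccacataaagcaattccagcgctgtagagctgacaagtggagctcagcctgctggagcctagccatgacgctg

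Among genes of iron regulation, 7 of 8 were higher than both tissues. Hp, the plasma scavenger of free hemoglobin, was the most abundant per length at 2200 TPM. Its log2 fold change was 2.81 over lung, where it lay between 186 and 261 CPM (median 232), and 12.15 over brain, where it stayed at or below 0.637 CPM, while the livers had 1031 to 1978 CPM (median 1587). Tmprss6, the protease that restrains hepcidin, had the largest fold of the list (log2 fold change 9.14, SE 0.19). Bmp6, the ligand by which endothelial cells induce hepcidin in the adult, was lower than in both tissues, with 1.35 to 3.99 CPM in liver (median 2.20), 14.6 to 22.2 CPM in lung (median 17.1) and 12.5 to 17.4 CPM in brain (median 16). The groups did not overlap, and the log2 fold change was -2.67 (SE 0.16). Hamp, the hepcidin gene itself, chosen after its values were seen, had 28.2, 9.28, 7.28 and 2.82 CPM in the livers of replicates 1 to 4 of the S226A litters and 1.67, 1.25, 1.11 and 1.27 CPM in those of the Y130A litters. The litter sets did not overlap in Hamp, whose liver contrast was not called as different between them.

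Genes of fetal growth did not belong to liver alone. Of 7 tested, 6 were higher than the mean, beside 22.7% of all genes. Of these 7, Igf2 and Gpc3 (2) were higher than both tissues, beside 15% of all genes. Gpc3, a cell surface proteoglycan that restrains growth, was the most abundant per length (794 TPM) and lay between 809 and 1060 CPM in liver (median 898), between 206 and 312 CPM in lung (median 280) and between 32.7 and 47.9 CPM in brain (median 41.4). Dlk1, a membrane protein of hepatoblasts and mesenchyme, was lower in liver (145 to 331 CPM, median 201) than in lung (362 to 651 CPM, median 423), without overlap (log2 fold change -1.07), and higher than in brain (3.88). Lin28b, an RNA-binding protein of fetal progenitors, was higher than lung (log2 fold change 5.00) and was not called against brain (-0.34). Igf2bp1 was called only against brain (1.2).

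Transcripts of hepatocyte genes were also present at low level in lung and brain, and their amount varied widely between libraries. For the 8 most abundant hepatocyte list genes per length other than Ttr (Alb, Ahsg, Afp, Apoa1, Fga, Fgg, Fgb and Apoa2), each level was expressed as a percent of its median in liver. The median over the 8 genes was 0.00486% to 0.237% of the liver level in the 7 lungs, a 48.7-fold range, and 0.00331% to 0.0644% in the 8 brains, a 19.5-fold range. A single library widened each range, since the next lowest lung was at 0.0436% and the next highest brain at 0.0311%. In the lung with the most of these transcripts the 8 genes lay between 0.22% and 0.259%, whereas in the brain with the least they lay between 0.00205% and 0.0339%, with Apoa2 as the highest. The ratio of Alb to Afp counts was 2.6 to 3.97 in liver (median 3.22), 2.93 to 7.5 in lung (median 3.41) and 2.41 to 4.14 in brain (median 3.2). The globin Hbb-bs did not follow this order of magnitude, with 13% to 30.2% of the liver level in lung and 1.84% to 5.78% in brain. The source of these transcripts in lung and brain was not tested.

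**Figure D4:**
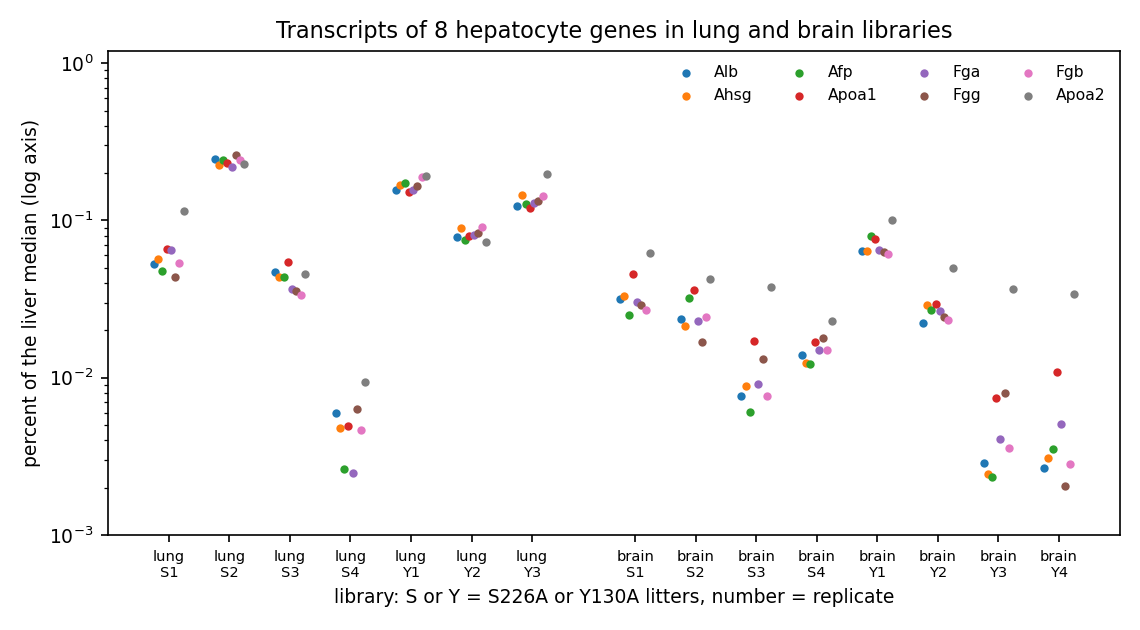
Level of 8 hepatocyte genes in each lung and brain library as a percent of their median in liver, on a log axis. The median of the genes runs from 0.00486% in replicate 4 of the S226A lungs to 0.237% in replicate 2, and Apoa2 is the highest of the 8 genes in every brain.

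The hematopoietic list genes with the highest levels per length were globins of the erythroid lineage. All 9 tested globin genes were higher in liver than in both tissues, with a median log2 fold change of 3.91. In 7 of them no lung or brain reached any liver, beside 2226 of all 2407 genes higher than both tissues. With RLE size factors or DESeq2 8 of the 9, and with library totals alone 7, were higher than both. They took 1.43% to 2.20% of liver counts (median 1.73%), 0.313% to 0.658% of lung counts (median 0.431%) and 0.0427% to 0.122% of brain counts (median 0.0719%). The adult beta globin Hbb-bs was the most abundant per length at 34365 TPM and lay between 8663 and 16518 CPM in liver (median 11360), between 1477 and 3435 CPM in lung (median 2014) and between 209 and 657 CPM in brain (median 328), a log2 fold change of 3.72 (SE 0.14, adjusted p = 8.86e-14). Hbb-bt followed at 13345 TPM, Hba-a1 at 12718 TPM and Hba-a2 at 7899 TPM, and since the copies are nearly identical their separate levels are uncertain. The embryonic globins, which primitive red cells of the yolk sac use, were far lower. Hbb-y was at a median of 26.9 TPM, Hba-x at 14.6 TPM and Hbb-bh1 at 6.17 TPM. Hbb-y also had the lowest log2 fold change of the list at 3.15 (SE 0.24), and its livers (3.82 to 13.5 CPM, median 7.19) and lungs (1.70 to 7.33 CPM, median 2.56) overlapped. The promoters of the adult beta globins and of Alas2, the erythroid enzyme of heme synthesis, are shown because the globins were the most abundant erythroid transcripts and Alas2 the most abundant of heme synthesis. They lie at chr7:103827879-103828178, minus strand, for Hbb-bs, chr7:103813874-103814173, minus strand, for Hbb-bt and chrX:150547167-150547466, plus strand, for Alas2 (GRCm38.p6), and capitals mark the GATA letters AGATAA and the KLF letters CCACACCC on either strand.
Hbb-bs: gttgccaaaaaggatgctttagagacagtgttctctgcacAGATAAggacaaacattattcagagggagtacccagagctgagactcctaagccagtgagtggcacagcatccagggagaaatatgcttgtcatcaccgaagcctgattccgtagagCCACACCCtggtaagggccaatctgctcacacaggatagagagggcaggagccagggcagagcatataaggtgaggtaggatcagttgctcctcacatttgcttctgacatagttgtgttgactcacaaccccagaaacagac
Hbb-bt: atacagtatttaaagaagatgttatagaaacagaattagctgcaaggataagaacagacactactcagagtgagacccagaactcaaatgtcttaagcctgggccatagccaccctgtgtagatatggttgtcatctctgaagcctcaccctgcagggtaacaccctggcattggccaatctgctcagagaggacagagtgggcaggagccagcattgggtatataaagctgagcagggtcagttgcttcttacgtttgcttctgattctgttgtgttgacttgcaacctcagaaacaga
Alas2: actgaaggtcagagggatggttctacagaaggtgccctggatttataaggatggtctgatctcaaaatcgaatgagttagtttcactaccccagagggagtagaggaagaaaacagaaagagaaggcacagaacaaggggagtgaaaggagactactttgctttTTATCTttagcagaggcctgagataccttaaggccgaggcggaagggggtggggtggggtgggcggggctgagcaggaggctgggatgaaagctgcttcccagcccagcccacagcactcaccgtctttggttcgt
Hbb-bs held the GATA letters 210 bases and the KLF letters 93 bases before its start site, Alas2 held the GATA letters 86 bases before it, and Hbb-bt held neither. Of 146 promoters of hematopoietic list genes, 28 (19.2%) held the GATA letters, compared with 11.2% of all promoters, 14.7% of those of hepatocyte list genes and 17.1% (7 of 41) of those of other liver cell lists. The KLF letters were in 2.05% of the hematopoietic promoters, below the 3.56% of all promoters.

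Heme synthesis separated into its erythroid and its general forms. Of its 9 enzymes 8 were higher than both tissues. Alas2 lay between 908 and 1617 CPM in liver (median 1227), between 119 and 217 CPM in lung (median 160) and between 16 and 37.9 CPM in brain (median 23.4), a log2 fold change of 4.36 (SE 0.11). Cpox, the coproporphyrinogen oxidase, had the largest log2 fold change at 5.44 (SE 0.07). Alas1, the form of the entry enzyme that all other cells use, was called against neither tissue, with 66.6 to 87.9 CPM in liver (median 82.0), 87.7 to 112 CPM in lung (median 102) and 43.5 to 53.8 CPM in brain (median 48.5).

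The transcription factors that direct erythroid and megakaryocyte fate were nearly all higher in liver. Of 12 tested, 10 were higher than both tissues. Klf1, the erythroid activator of adult beta globin, lay between 115 and 208 CPM in liver (median 135), between 0.12 and 1.08 CPM in lung (median 0.25) and between 0.105 and 0.441 CPM in brain (median 0.305), a log2 fold change of 8.60 (SE 0.21). Gfi1b (9.39), Gata1 (8.36), Nfe2 (7.37), E2f2 (4.55), Zfpm1 (the Gata1 cofactor FOG1, 3.97), Tal1 (3.85), Lyl1 (3.72), Myb (2.75) and Lmo2 (2.57) had log2 fold changes in the same direction against each tissue. Bcl11a, the repressor of embryonic and fetal globins that neurons also express, was higher than lung (log2 fold change 3.21) and lower than brain (-1.02). Its livers lay between 46.7 and 79.6 CPM (median 65.3) and its brains between 108 and 142 CPM (median 129), without overlap. Ldb1, a broadly expressed cofactor, was called in no comparison (log2 fold change -0.13).

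Erythroid membrane proteins and receptors were nearly uniform, with all 22 tested genes higher than the mean and 21 higher than both tissues. Slc4a1, the anion exchanger band 3, was the most abundant per length at 1553 TPM and lay between 2655 and 3808 CPM in liver (median 3268), between 21.2 and 89.5 CPM in lung (median 29.1) and between 1.29 and 8.31 CPM in brain (median 3.36). Hemgn, a nuclear protein of erythroblasts, had the largest log2 fold change at 9.60 (SE 0.27) and Dmtn, a protein of the membrane skeleton that neurons share, the lowest at 2.63 (SE 0.08). Add2, the beta subunit of adducin, was higher than lung (6.8) and was not called against brain (-0.62), where it lay between 419 and 501 CPM compared with 241 to 354 CPM in liver. The groups of red cell genes differed in how far they stood above lung. The median log2 fold change over lung was 2.66 for the globins, 3.03 for heme synthesis and 6.40 for membrane proteins and receptors. In terms of the liver level, the lungs held a median of 17.7% for Hbb-bs and 13% for Alas2 but 0.89% for Slc4a1, and the brains 2.89%, 1.91% and 0.103%.

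All 18 granulocyte genes were higher than both tissues, with a median log2 fold change of 8.10, and took 0.279% to 0.362% of liver counts. S100a9, a calcium-binding protein of neutrophils, was the most abundant per length (4897 TPM), with 915 to 1395 CPM in liver (median 1096), 11.6 to 28.2 CPM in lung (median 17.9) and 0.346 to 1.85 CPM in brain (median 0.757). Ms4a3, a marker of granulocyte and monocyte progenitors, had the largest log2 fold change at 10.76 (SE 0.33), with 14.0 to 21.5 CPM in liver (median 17.4) and 1 read over the 7 lungs and 3 over the 8 brains. The ratio of liver to lung for Ms4a3 was 4180, with a counting interval from 750 to 165099. All 11 megakaryocyte and platelet genes tested were higher than both tissues. Ppbp, a platelet chemokine, had the largest log2 fold change at 7.41 (SE 0.16), and Pf4, another platelet chemokine, was the most abundant per length (177 TPM) and had the lowest at 3.37 (SE 0.09). In the B lineage 12 of 13 genes were higher than both tissues. Igll1, the surrogate light chain of pre-B cells, had the largest log2 fold change at 8.36 (SE 0.36), and Ebf1, a factor that many mesenchymal cells and neurons also have, was called against neither tissue (0.20). Cd79b, a signalling chain of the B cell receptor, was the most abundant of the list per length, at only 34.9 TPM.

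Lymphocytes of the T and NK lineages left little trace. Of 11 genes, 5 had too few counts to be tested, and 2 of the 6 tested were higher than both tissues, beside 15% of all genes. The 2 were Nkg7 and Gzma, which encode granule proteins of cytotoxic cells. Gzma lay between 3.16 and 11.5 CPM in liver (median 7.49), between 0.819 and 3.09 CPM in lung (median 1.38) and at most 0.0847 CPM in brain. Cd247, the zeta chain of the T cell receptor, was lower than the mean (log2 fold change -2.70, SE 0.71), with a liver median of 0.0348 CPM. Of the mast cell, eosinophil and basophil genes, 3 of 6 were higher than both tissues, beside the same 15% of all genes. Prg2, the major basic protein of eosinophils, had the largest log2 fold change of that list at 7.24 (SE 0.62). Cpa3, a mast cell protease, was lower than in lung (-1.35) and higher than in brain (1.44).

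Stem and progenitor genes were mixed in direction. Their median log2 fold change over the mean was -0.13, close to the -0.10 of all genes, with -1.20 over lung and 1.23 over brain. Of 16 genes, 6 were higher and 8 lower than in lung, beside 19.4% and 23.8% of all genes. Against brain 9 were higher and none lower, beside 27.6% and 29.8% of all genes. Higher than both tissues were 6, beside 15% of all genes. Cd34, which also marks endothelium, lay between 12.7 and 25.7 CPM in liver (median 15.4), between 266 and 380 CPM in lung (median 324) and between 21.8 and 31.1 CPM in brain (median 27.1). Its log2 fold change over lung was -4.28, and against brain it was not called (-0.71). Mecom (-4.18), Ly6a (-3.34), Gata2 (-2.63), Meis1 (-2.23), Cd93 (-2.46), Procr (-1.84) and Erg (-1.55) were lower than lung, and Kit, the receptor for stem cell factor, was called against neither tissue (-0.84 over lung and -0.24 over brain). The members higher than both were Slamf1, Ptprc, Cd48, Spi1, Flt3 and Hlf. Slamf1, a surface marker of stem cells, had the largest log2 fold change at 3.88 (SE 0.30), with 3.47 to 7.77 CPM in liver (median 5.74), 0.548 to 0.982 CPM in lung (median 0.90) and 0.0418 to 0.441 CPM in brain (median 0.137). The share of counts of the list was higher in lung (0.157% to 0.18%) than in liver (0.0307% to 0.0366%) and lower in brain (0.0239% to 0.0296%), without overlap.

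Non-parenchymal cells of the liver were seen through markers of differing sharpness. In the Kupffer cell and macrophage list, 14 of 17 genes were higher than both tissues. Clec4f, a lectin of Kupffer cells, lay between 84.3 and 155 CPM in liver (median 136), at most at 0.15 CPM in lung and at most at 0.145 CPM in brain, the largest log2 fold change of the list at 11.36 (SE 0.21). Hmox1, the heme oxygenase by which macrophages recycle iron, was the most abundant per length (252 TPM, log2 fold change 4.37), and Id3 had the lowest log2 fold change (-0.80) and was lower than in lung. In the list of sinusoidal endothelium, 8 of 12 genes were higher than both tissues, beside 15% of all genes. Its share of all counts was 0.0927% to 0.111% in liver and 0.0916% to 0.119% in lung. After TMM scaling, the summed CPM of the list were 1270 to 1480 in liver and 775 to 1030 in lung, without overlap. Stab2, a scavenger receptor of sinusoidal endothelium, was the most abundant per length (117 TPM) and lay between 391 and 486 CPM in liver (median 435), between 10.3 and 34.5 CPM in lung (median 19.7) and between 0.0837 and 0.764 CPM in brain (median 0.508). Dnase1l3, a secreted nuclease, had the largest log2 fold change at 8.77 (SE 0.41), and Kdr, the VEGF receptor of all endothelium, the lowest at -0.45, being lower than in lung (-1.69).

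Stellate cell and portal genes were mixed, with 6 of 13 higher than both tissues, beside 15% of all genes. Gdf2, the ligand BMP9 that stellate cells release into the circulation, had the largest log2 fold change at 8.61 (SE 0.23), with 43.9 to 65.0 CPM in liver (median 55.5), at most 0.406 CPM in lung and at most 0.206 CPM in brain. Reln, the extracellular protein reelin, was the most abundant per length (71.9 TPM) and was not called against brain (0.65), where neurons make it. Rgs5, a gene of pericytes, was lower than both tissues (-4.75, SE 0.17), with 0.859 to 3.56 CPM in liver (median 2.04), 26.0 to 50.4 CPM in lung (median 35.4) and 79.3 to 109 CPM in brain (median 87.8). Lhx2 (-2.88) and Ngfr (-1.15) were lower than brain and higher than lung, and Des was lower than lung (-2.54) and higher than brain (3.16). Of 7 genes of bile duct epithelium, 4 were higher and 2 lower than in brain, 1 was higher and 5 lower than in lung, and Spp1 was higher than both tissues (log2 fold change 2.88, SE 0.27), a share near that of all genes. Krt19 (-5.35), Krt7 (-5.11) and Epcam (-4.11) were lower in liver than in lung, whose epithelium expresses them, and higher than in brain (1.65, 3.48 and 1.93), and Cftr and Sox4 were lower than both tissues. Cftr, the chloride channel of secretory epithelia, lay at or below 0.696 CPM in every liver and between 47.9 and 65.4 CPM in lung (median 56.2).

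Proliferation genes were higher in liver without exception, 16 of 16 against both tissues, with a median log2 fold change of 2.31, or 13 of 16 when library totals alone set the scale. Mki67, the antigen Ki-67, was the most abundant per length (750 TPM) and had the largest log2 fold change at 3.97 (SE 0.08), with 3027 to 3679 CPM in liver (median 3160), 249 to 506 CPM in lung (median 371) and 104 to 137 CPM in brain (median 118). Bub1, a spindle checkpoint kinase, had the lowest at 1.75 (SE 0.08). The list took 0.403% to 0.489% of liver counts, 0.0728% to 0.181% of lung counts and 0.0485% to 0.0622% of brain counts, and no lung or brain reached the liver. The cells that carried these transcripts cannot be told apart in whole organ.

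The genes with the largest log2 fold changes over the mean, among those called against both tissues, without overlap and at a mean of 10 CPM or more in liver, were mostly enzymes and secreted inhibitors. They were Hao2, Cyp3a25, Serpina5, BC025446, Cyp2j5, Cyp8b1, Spink1, Serpina1c, Alb and G6pc, with fitted values between 11.96 and 11.44. Because lung and brain held few reads of most of them, the folds carry counting limits. Hao2, a peroxisomal hydroxyacid oxidase, lay between 54.1 and 104 CPM in liver (median 86.6) with 2 reads over the 8 brains, a ratio of 14245 with a counting interval from 3943 to 117625. Serpina5, the protein C inhibitor, had 7.89 to 22.7 CPM in liver (median 9.15) and no read in any lung or brain, which made it at least 1012-fold higher than lung and at least 1449-fold higher than brain, against 3 counts over each group. Cyp3a25 ranged from 5.28 to 147 CPM among the livers (median 61.4), with 2 reads over the 7 lungs and 3 over the 8 brains. Cyp3a25 thus varied strongly within liver while staying close to absent elsewhere.

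The genes with the most negative log2 fold changes were ones that liver hardly transcribed. They were chosen by the same rule, except that the mean of 10 CPM or more was asked of lung or brain and not of liver. Among the 10 chosen were Mlc1, Sec14l3, Higd1b, Ptpn5, Frrs1l, Lrrc4b, Kcnj3, Pou3f3 and Nkx2-1. No liver had a read of Mlc1, a membrane protein of astrocytes, which lay between 22.8 and 35.2 CPM in lung (median 31.8) and between 34.7 and 49.6 CPM in brain (median 45.5). It was at least 1933-fold lower than in lung and at least 2766-fold lower than in brain, against 3 counts over the 8 livers. Nkx2-1, the factor that specifies lung and forebrain, likewise had no read in any liver and was at least 3823-fold lower than in lung, where it lay between 43.7 and 152 CPM (median 49.5). Sftpc, surfactant protein C, lay between 4759 and 8143 CPM in lung (median 6452) and had no read in any liver, so that it was at least 389813-fold lower. Of the 15 lung epithelial genes, 10 were lower in liver than the mean, against 26.3% of all genes, 14 were lower than in lung (23.8% of all genes), and 5 were higher and 5 lower than in brain (27.6% and 29.8% of all genes). The 2 that were higher than the mean, against 22.7% of all genes, were Lyz2, the lysozyme of macrophages (416 to 624 CPM in liver, 263 to 924 CPM in lung, overlapping), and Napsa, which was lower than in lung (-3.73) and higher than in brain (7.83). None of the 16 neuronal genes was higher than the mean and 13 were lower, and all 16 were lower than in brain, against 29.8% of all genes.

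The spread among the 8 livers was taken for list members that were higher in both comparisons and at a mean of 10 CPM or more in liver. Other members, Hamp among them, were left out. By this measure most lists varied little. The highest liver was a median of 1.40 to 1.60 times the lowest for the plasma, clotting, urea cycle, glucose, heme, erythroid factor, erythroid membrane and granulocyte lists, around the 1.52 of all 1984 genes that were higher in both comparisons and at 10 CPM or more. The bile acid and P450 list was wider at 1.93, the B lineage at 2.09, the 2 fetal growth genes at 2.6 and the only bile duct gene, Spp1, at 4.77. Among these list members, 11 of those with the widest range are described here. These genes, named after their values were seen, were Apoa5, Pck1, Apoa4, C9, Tat, Cyp2e1, Nr1i3, G6pc, Slco1b2, Apoc3 and Spp1. Pck1, the rate-limiting enzyme of gluconeogenesis, had 54.0, 24.4, 88.3 and 42.0 CPM in replicates 1 to 4 of the S226A litters and 21.8, 15, 27.6 and 4.13 CPM in those of the Y130A litters. Tat, a glucocorticoid-induced aminotransferase, had 65.8, 38.3, 54.7 and 38.5 CPM in the former and 23.2, 15.8, 22.7 and 8.22 CPM in the latter. Every liver of the S226A litters was above every liver of the other set in Tat, while the sets overlapped in Pck1. Replicate 4 of the Y130A litters was the lowest liver for 8 of the 11 genes, among them Apoa5, Cyp2e1 and Nr1i3. The complement gene C9 ran the other way, at 2.09 CPM in replicate 1 of the S226A litters, the highest liver for Apoa5, Tat and Cyp2e1, and at 19.4 CPM in replicate 4 of the Y130A litters. The litter sets also differ in depth, whose part in these differences was not tested.

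**Figure D5:**
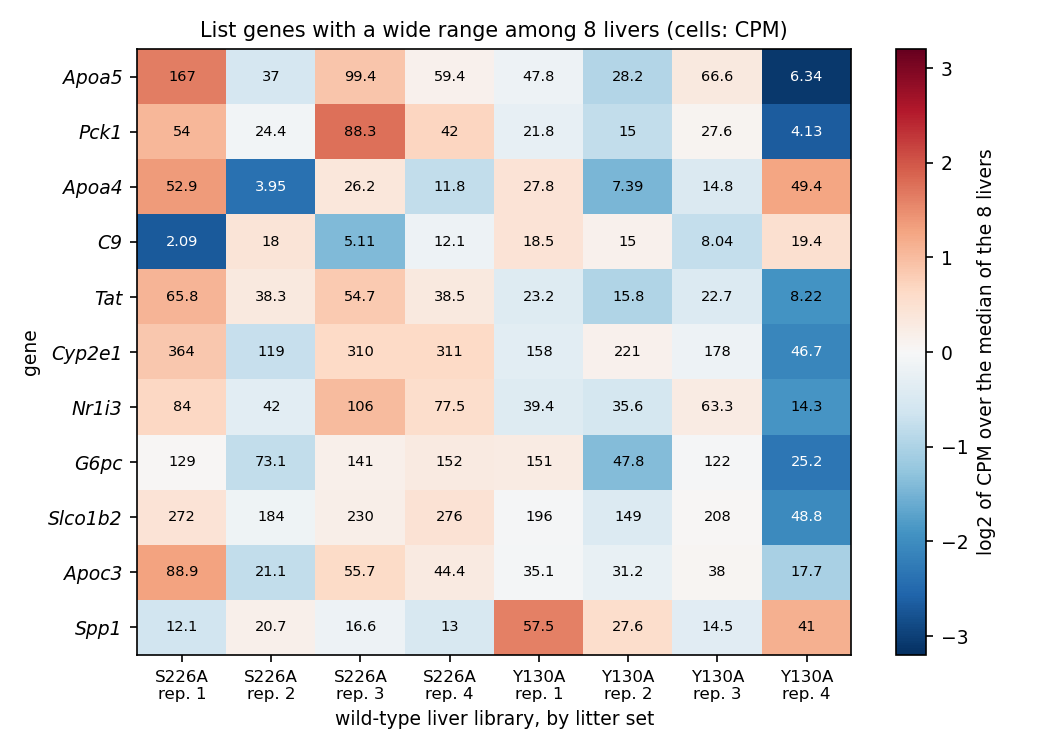
Level in CPM, printed in each cell, of 11 list genes with a wide range among the 8 livers, coloured by log2 of the level over the median of the livers. Replicate 4 of the Y130A litters is lowest in 8 genes, while Apoa4, C9 and Spp1 are among their higher values there.

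The contrast of liver with the mean of lung and brain differed between the litter sets in 13 of the 16036 genes tested. This was by the interaction test (edgeR, adjusted p below 0.01 and a difference beyond 1), and 1972 of the 16036 had an unadjusted p below 0.05. Of the 13, 10 were predicted genes with Gm symbols. None was a member of a hepatocyte or hematopoietic list, but with so few genes called this absence is not a result about the lists. Fitted separately, 2096 genes were higher than both tissues in the S226A litters and 2246 in the Y130A litters, and 1902 and 2202 were lower than both.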

How the data were processed

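RNA sequencing was analysed for the 23 wild-type libraries of whole E18.5 tissue. The authors deposited raw counts per gene. The submitters' processing notes name FastQC 0.11.5, Trim Galore 0.6.5, STAR 2.6.0b, DESeq2 and the genome build GRCm38. Per the study's methods, STAR also counted the reads per gene. The strand setting is not given in the sources used here, so reads of overlapping antisense genes could not be separated. Gene symbols of 20424 of the 20456 genes were matched to GENCODE M21, which also gave lengths for TPM.

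Counts were fitted with edgeR 4.0.16 in R 4.3.3 (quasi-likelihood test, TMM scaling, filter by tissue at a minimum count of 10 and a minimum total of 15), with tissue and embryo as terms. Genes were called at a Benjamini-Hochberg adjusted p below 0.01, a log2 fold change beyond 1 and a standard error below 1, the standard error being the absolute log2 fold change over the square root of F. The sample titles name the embryo of each library. Replicate numbers count libraries within a tissue and litter set, so that the same number can stand for different embryos in different tissues. Deviations from the mean of the tissue within its litter set were correlated between tissues. The median correlation was 0.064 over 20 pairs of the same embryo (3 above 0.1). It was -0.022 over 68 pairs of other embryos of the same litter set. No pair of replicates agreed within sampling noise, with chi-square values per degree of freedom of 4.82 or more. P-values measure the spread between embryos of these litters. Total counts, given in the report, limit the precision for genes with few reads, and intervals (exact Poisson, 95%) and the floor of 3 counts cover counting error only.

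The libraries, the 27 gene lists and the comparisons were chosen with earlier results of these data known. Named genes were, in each list, those with the highest TPM, the largest and the lowest log2 fold change and those going against the list, all transcription factors, the 10 largest and 10 most negative log2 fold changes without overlap of libraries and at a mean of 10 CPM or more, and the 15 highest TPM values in liver. The remaining names were chosen after their values were seen. The fitting code was tested on simulated data. Alternatives were RLE size factors, library totals alone, DESeq2 1.42.0, no filter, no block, litter as block, other limits, each litter set alone and leaving out each library. Ahsp and H19 were not analysed here, and results of some genes are not reported here.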

Additional observations from a re-analysis of the deposited data

Results flagged for a closer look

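A library was far from the others of its tissue in 73 of 495 sets of values examined. The limits used give about 1 in 20 by chance for normally distributed values. Levels close to 0 are not so distributed and the sets share libraries, so that no excess over chance can be read from the count. Many of the flagged sets were genes close to absent from lung or brain, for which a few reads set the value. In liver, replicate 1 of the S226A litters stood apart as the lowest library for Flt3 (2.09 CPM). In liver, replicate 1 of the S226A litters stood apart as the highest library for Hamp (28.2 CPM) and Napsa (22.7 CPM). Replicate 2 of the S226A litters was the isolated highest liver for Des (16.7 CPM) and Frrs1l (0.132 CPM). For Alb (143840 CPM), Cd34 (25.7 CPM), Gc (3714 CPM), Krt19 (12.5 CPM) and Lrrc4b (0.0265 CPM), the isolated highest liver was replicate 1 of the Y130A litters. In liver, replicate 2 of the Y130A litters was separated as the highest library for Igf2bp1 (39.5 CPM) and Reln (889 CPM). Replicate 4 of the Y130A litters was the isolated highest liver for Mki67 (3679 CPM). Replicate 4 of the Y130A litters was the isolated lowest liver for Serpina1e (4100 CPM) and Tmprss6 (193 CPM). For Apoa5 (0.234 CPM), BC025446 (0.14 CPM), Cpa3 (6.27 CPM), Gzma (3.09 CPM), Hamp (0.0936 CPM), Hemgn (4.07 CPM) and Slc4a1 (89.5 CPM), the isolated highest lung was replicate 1 of the S226A litters. In lung, replicate 2 of the S226A litters lay apart as the highest library for Dnase1l3 (0.899 CPM), Gfi1b (0.719 CPM), Prg2 (0.944 CPM), Serpina1e (23.3 CPM), Tdo2 (3.64 CPM) and Tmprss6 (2.56 CPM). Replicate 3 of the S226A litters was the isolated lowest lung for Bub1 (13.4 CPM) and Sox4 (65.4 CPM). Replicate 3 of the S226A litters was the isolated highest lung for Clec4f (0.15 CPM), G6pc (0.25 CPM), Lhx2 (0.5 CPM), Ms4a3 (0.05 CPM) and Nr1i3 (0.3 CPM). For Bmp6 (22.2 CPM), E2f2 (79 CPM), Igf2bp1 (55.2 CPM), Ptpn5 (3.66 CPM) and Zfpm1 (23.3 CPM), the isolated highest lung was replicate 4 of the S226A litters. In lung, replicate 1 of the Y130A litters was set off as the highest library for C9 (0.0212 CPM), Cyp3a25 (0.0424 CPM), Hao2 (0.212 CPM), Ngfr (4.3 CPM), Nkg7 (0.17 CPM) and Otc (0.297 CPM). Replicate 2 of the Y130A litters was the isolated highest lung for Apoa4 (0.203 CPM). For Hamp (0.251 CPM), the isolated highest brain was replicate 1 of the S226A litters. For Mecom (5.61 CPM), the isolated lowest brain was replicate 1 of the S226A litters. In brain, replicate 2 of the S226A litters stood apart as the highest library for Hmox1 (6.19 CPM), Ms4a3 (0.0825 CPM), Slco1b2 (0.454 CPM) and Spp1 (13.5 CPM). Replicate 3 of the S226A litters was the isolated highest brain for Ppara (2.31 CPM). For Onecut1 (1.84 CPM), the isolated highest brain was replicate 4 of the S226A litters. In brain, replicate 1 of the Y130A litters was separated as the highest library for Afp (29.8 CPM), Alb (79.2 CPM), Apoa4 (0.327 CPM), Cyp3a16 (0.182 CPM), Fga (9.95 CPM), Fgb (8.73 CPM), Fgg (6.51 CPM), Hao2 (0.0364 CPM), Hba-x (0.782 CPM), Nr1i2 (0.0909 CPM), Otc (0.236 CPM) and Sftpc (1.6 CPM). Replicate 2 of the Y130A litters was the isolated highest brain for Cyp2j5 (0.0508 CPM) and Gzma (0.0847 CPM). For Lmo2 (23.2 CPM), the isolated highest brain was replicate 3 of the Y130A litters. In brain, replicate 4 of the Y130A litters lay apart as the highest library for Dnase1l3 (0.077 CPM) and Epcam (2.81 CPM). The 10 squamous epithelial genes took 0.0202% of the counts of replicate 2 of the S226A livers, far from the other livers. What set these libraries apart was not tested.

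The contrast of liver with the mean of lung and brain differed between the litter sets, by the interaction test in edgeR, in 13 genes. As log2 of the Y130A litters minus the S226A litters, the differences were those of Gm10801 (-7.25), Gm10718 (-7.22), Gm21738 (-7.74), Gm10717 (-7.81), Gm11168 (-7.05), Gm10715 (-8.70), Gm10800 (-8.00), Gm10722 (-6.94), Astn2 (2.23), Gm17535 (-8.45), Tmem150c (-1.32), Gm10719 (-5.85) and Dnah2 (2.08). The Gm symbols are predicted genes. Depth differed between the litter sets as well, and its part in these differences was not tested.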

How the results depend on the processing

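With an adjusted p below 0.05 as the only limit, 6514 genes were higher and 7234 lower than the mean of lung and brain, and 4464 were higher and 4635 lower than both. A log2 fold change beyond 2 left 2186 genes higher than the mean, 1372 higher than both and 1530 lower than both. With library totals alone, 4023 genes were lower than both tissues. When single libraries were left out, 3577 to 3695 genes were higher and 4128 to 4236 lower than the mean, 2354 to 2416 higher and 2350 to 2456 lower than both, 10 to 17 differed between litter sets, and 123 to 124 hepatocyte and 111 to 114 hematopoietic list genes were higher than both. Without the embryo as a replicate block, 3663 genes were higher and 4293 lower than the mean, 2415 higher and 2525 lower than both, and 17 differed between litter sets. Litter as block, which kept the unpaired lung, gave 3644, 4265, 2404 and 2473. The other alternatives stayed within 1.5 times these counts. With DESeq2, 111 rather than 124 hepatocyte and 112 rather than 114 hematopoietic list genes were higher than both. Of 4831 values of the 156 named genes under alternatives, 4777 kept their direction and side of the limits. The others were 21 values in 12 genes that lost their call, 11 in 8 genes that gained a call and 22 in 10 genes that changed sign. With library totals alone, the log2 fold change over the mean turned negative for Alas1 (-0.43), Des (-0.32), Ebf1 (-0.42), Erg (-0.33), Foxa1 (-0.09), Igf2bp1 (-0.07), Ngfr (-0.27), Pros1 (-0.24) and Cpa3 (-0.58), none of which was called over the mean. Cpa3 was at -0.04 with RLE size factors, with DESeq2 and in the Y130A litters alone, and between -0.09 and 0.19 when single libraries were left out. In the Y130A litters alone Ebf1 was at -0.02 and Ngfr at -0.09, and in the S226A litters alone Tbx3 was at 0.02. The cause was not tested. Depth limits the folds of genes with few reads in a tissue.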

Other observations

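Some gene families, chosen after their values were seen and partly made up of genes that are also in the lists above, had differing counts of members higher in liver. Of 26 tested Cyp2 genes, which encode cytochrome P450 enzymes, 18 were higher in liver than in lung and in brain, with a median log2 fold change of 9.43 over the mean. Among Ugt genes, whose enzymes attach glucuronic acid, 12 of 14 were higher than both tissues (median 8.59), and among Serpina genes, which encode protease inhibitors, 16 of 19 were (median 10.13). Glutathione transferases (Gst) were more evenly spread, with 8 of 18 higher than both tissues, 1 lower than both and a median of 1.86. The organic anion transporters of the Slco family had 2 of 11 genes higher than both tissues and 4 lower than both (median -1.41). All 7 Mcm genes, which encode the replicative helicase and its relatives, were higher than both tissues (median 2.54). None of the 12 major urinary protein genes (Mup) in the file had enough counts to be tested. The background for these counts is 15% of all genes higher and 15.1% lower than both.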
